A study of Homo sapiens with 9 samples.

Results

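SNAI1, MSN and EPCAM, genes of cell motility and adhesion, were followed across vehicle, MS-275 and corin in WM983B, an established human melanoma line. The genes were taken by their symbols, which gave 1 probe for each and 3 of the 14884 named genes on the array. All 3 groups were treated for 24 h, with DMSO alone (vehicle), 2.5 µM MS-275 or 2.5 µM corin, and each group holds 3 Affymetrix Human Gene 2.0 ST arrays of total RNA. The sample labels write corin2 for the last compound, which was taken to be corin, compound 2 of the study. MS-275, also called entinostat, is a benzamide that blocks histone deacetylases of class I. Corin joins an HDAC-binding part derived from entinostat to a warhead of the tranylcypromine type aimed at the demethylase LSD1. No arm with an LSD1 inhibitor alone was analysed here, and all values come from 1 cell line, 1 dose and 1 time.

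SNAI1 (Snail) is a zinc-finger repressor best known for silencing the E-cadherin gene during epithelial-mesenchymal transition (EMT), and its N-terminal SNAG domain can recruit LSD1 with CoREST and histone deacetylases to its targets. MSN encodes moesin, which with ezrin and radixin forms the ERM family that ties actin filaments to the plasma membrane and shapes the cell cortex. EPCAM is a cell adhesion molecule of simple epithelia that is not part of the usual melanocyte programme and can be cleaved by ADAM17 and by gamma-secretase. In melanoma, SNAI2 and ZEB2 are known to accompany the differentiated state, while ZEB1 and TWIST1 accompany the dedifferentiated one.

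SNAI1 and EPCAM rose with MS-275 and rose further with corin, while MSN was level under MS-275 and fell only with corin among the 2 inhibitors. Over vehicle, corin raised SNAI1 by 6.95-fold and EPCAM by 5.29-fold and lowered MSN by 3.86-fold. The array signal is on the log2 scale, so a difference of 1 is a doubling. A gene was called at a fold of at least 2 and a Benjamini-Hochberg adjusted p under 0.05 from limma over all 14884 named genes, and the words rose and fell are kept for genes that were called. With corin all 3 genes were called against vehicle, where 14.9% of named genes were called. With MS-275 2 of the 3 were called, against 3.42% of named genes, and all 3 were called between the inhibitors, against 6.05%. Both inhibitors were set against the same 3 vehicle arrays, so these comparisons are not independent of each other. The 3 genes were chosen with earlier results of these data known, so the shares are given as background and test nothing.

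Array medians lay between 4.05 and 4.12 over all probes, and Pearson's r across genes was 0.989 or more within each group, where genes are not independent replicates. The values are relative to the other transcripts on an array, so fewer cells of a type and less RNA per cell cannot be told apart. The melanocyte lineage markers matched the label, with PMEL at 10.56 and SOX10 at 10.09 on average in vehicle. They moved with corin: 5 of the 7 measured of 9 listed were lower than vehicle with corin, 0 with MS-275 by limma (with or without adjusting the p, past 2-fold), and 4 were lower for corin against MS-275. Over all named genes 7.61%, 0.39% and 3.64% were called lower in these comparisons. MLANA averaged 7.79 with MS-275 against 8.70 in vehicle, short of the 2-fold limit. The mean log2 signal of the measured melanocyte markers spanned 8.96 to 9.03 on vehicle arrays, 8.60 to 8.77 with MS-275 and 6.96 to 7.06 with corin. No marker level was 0, and the part of this loss of pigment cell transcripts in the results below was not tested.

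SNAI1 had a log2 signal of 6.96, 6.84 and 7.11 on the vehicle arrays, 8.46, 8.42 and 8.38 with MS-275, and 9.84, 9.76 and 9.69 with corin. Every corin array lay above every MS-275 array, and every MS-275 array above every vehicle array. The difference from vehicle was 1.45 with MS-275 (95% interval 1.25 to 1.64, limma adjusted p = 5.5e-07, n = 3 arrays per group) and 2.80 with corin (2.60 to 2.99, limma adjusted p = 4.1e-10). The step from MS-275 to corin was 1.35 (1.15 to 1.54, limma adjusted p = 4.4e-07), or 2.55-fold. Both steps were thus of similar size on the log2 scale, and together they placed SNAI1 at rank 104 of 14884 genes by its rise over vehicle with corin.

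MSN had a log2 signal of 11.33, 11.34 and 11.31 with vehicle, 11.35, 11.26 and 11.29 with MS-275, and 9.33, 9.40 and 9.41 with corin. Vehicle and MS-275 arrays overlapped, and all 3 corin arrays lay apart below both. Between MS-275 and vehicle the difference was -0.03 with a 95% interval of -0.19 to 0.14 (limma adjusted p = 0.845), so that a change as large as 2-fold lay outside the interval. With corin MSN was lower than vehicle by -1.95 (-2.11 to -1.79, limma adjusted p = 1.6e-09) and lower than with MS-275 by -1.92 (-2.09 to -1.76, limma adjusted p = 6.9e-09). Its fall against MS-275 was the 100th from the bottom among 14884 genes. MSNP1, a moesin pseudogene, is listed in RefSeq, and how far the MSN probe reads it was not tested.

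EPCAM had a log2 signal of 4.15, 3.90 and 4.14 with vehicle, 5.08, 5.33 and 4.97 with MS-275, and 6.45, 6.55 and 6.41 with corin. The 3 groups did not overlap, in the same order as for SNAI1. EPCAM was higher than vehicle by 1.06 with MS-275 (95% interval 0.82 to 1.31, limma adjusted p = 2.8e-05) and by 2.40 with corin (2.16 to 2.65, limma adjusted p = 7.5e-09). Corin arrays exceeded MS-275 arrays by 2.53-fold (log2 difference 1.34, interval 1.10 to 1.58, limma adjusted p = 2.5e-06). The vehicle signal of 4.07 ± 0.14 (SD, n = 3) was close to the median of all probes, so the size of these folds is less certain than their direction. The call for MS-275 is a narrow one: it fell short of 2-fold without vehicle replicate 2 (0.98), without MS-275 replicate 2 (0.96), with arrays centred on the median (0.96) and with quantile normalization (0.97).

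**Figure D1:**
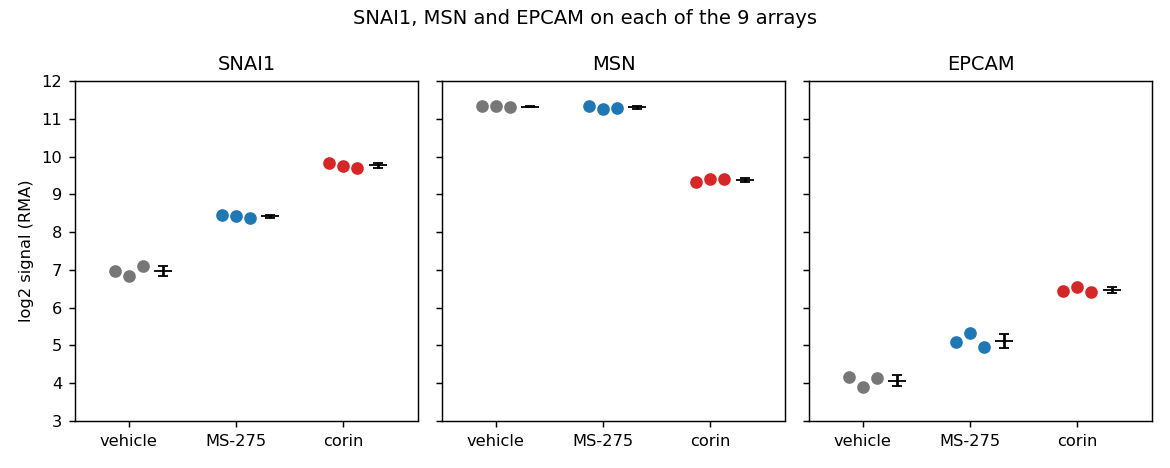
Log2 signal (vertical axis) of SNAI1, MSN and EPCAM on each array of the 3 groups (horizontal axis), as points, with the group mean and SD as a black bar beside them. SNAI1 and EPCAM climb from vehicle through MS-275 to corin, and MSN is level between vehicle and MS-275 and about 2 log2 units lower with corin.

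SNAI1 was the 1 member of its family called higher. SNAI2 (Slug), the family member of neural crest and melanocytes, moved the opposite way, with 11.10, 11.07 and 11.15 in vehicle, 10.39, 10.40 and 10.37 with MS-275, and 9.74, 10.01 and 9.89 with corin. The groups were again fully apart, but descending. SNAI2 fell 2.34-fold with corin (log2 difference -1.22, 95% interval -1.41 to -1.03, limma adjusted p = 2.5e-07). With MS-275 it was 1.65-fold below vehicle (-0.72, limma adjusted p = 8.3e-05), short of the 2-fold limit. SNAI3, a less studied Snail repressor, was 0.76 above vehicle with corin (interval 0.52 to 1.00) and 0.32 with MS-275, and was not called.

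Among all EMT transcription factors, 12 of 13 listed genes were measured. With corin 2 were called higher and 3 lower than vehicle (7.26% and 7.61% of all named genes were called higher and lower), and with MS-275 2 were higher and 0 lower by limma (3.03% and 0.39% of all; at an unadjusted p under 0.05 whatever the fold, 5 were higher and 4 lower). ZEB1, a zinc-finger repressor of epithelial genes, rose with both inhibitors, from 3.50 ± 0.06 in vehicle to 4.74 ± 0.05 with MS-275 and 5.41 ± 0.03 with corin (SD, n = 3). ZEB2, its relative, went from 6.95 ± 0.06 to 6.46 ± 0.13 and 5.24 ± 0.05. ZEB2 fell 3.26-fold with corin over vehicle and 2.33-fold against MS-275 (log2 difference -1.22, limma adjusted p = 8.7e-07). Between the inhibitors SNAI1 was the 1 factor called higher and ZEB2 the 1 called lower, beside 2.41% and 3.64% of all genes. The third factor lower with corin was PRRX1, a homeobox gene of mesenchyme (log2 difference -1.12, named after its value was seen), and TWIST1 differed from vehicle by 0.19 with corin. The median log2 difference of the list was 0.18 with corin and 0.19 with MS-275 over vehicle, and -0.11 between the inhibitors, against -0.04, -0.03 and -0.03 over all genes. The vehicle signal of ZEB1 lay below the median probe, so the size of its fold is uncertain.

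**Figure D2:**
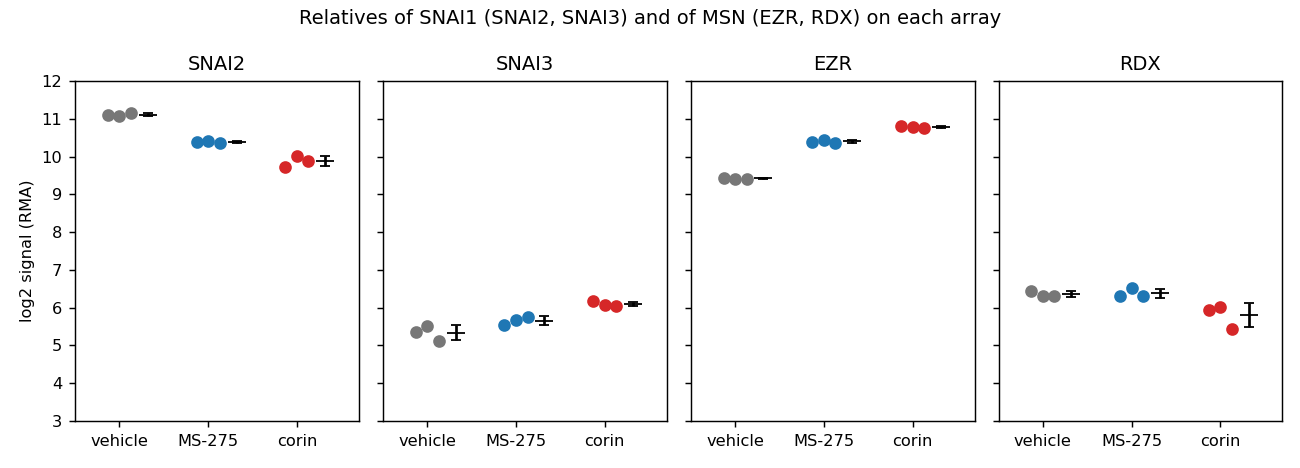
Log2 signal (vertical axis) of SNAI2, SNAI3, EZR and RDX on each array by group (horizontal axis), with the group mean and SD as a black bar. SNAI2 steps down where EZR steps up, and neither SNAI3 nor RDX reaches a 2-fold difference between any pair of groups.

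Epithelial genes were measured to set EPCAM among its neighbours. Of 35 listed junction and identity genes 28 were measured, and E-cadherin (CDH1) was not analysed here. The list includes EPCAM itself, which counts among the genes called higher with each inhibitor. With corin 12 were called higher than vehicle and 0 lower by limma, against 7.26% and 7.61% of all genes (at an unadjusted p under 0.05 whatever the fold, 15 were higher and 2 lower). With MS-275 8 were higher and 0 lower (14 and 0 at an unadjusted p), against 3.03% and 0.39%. All 8 genes higher with MS-275 were also higher with corin. The median difference of the list was 0.37 with corin and 0.35 with MS-275, while between the inhibitors it was 0.10.

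The largest difference of the list with corin was that of DSP. This gene, which encodes desmoplakin, the link from desmosomes to intermediate filaments, had 4.85, 5.08 and 4.72 in vehicle, 7.32, 7.26 and 7.37 with MS-275, and 7.74, 7.90 and 7.81 with corin. DSP thus rose 7.63-fold with corin and 5.39-fold with MS-275, with a further 1.42-fold between them that was not called. PKP2 (plakophilin 2) rose 6.50-fold and 5.43-fold, and JUP (plakoglobin) 2.91-fold and 3.17-fold, with corin and MS-275 respectively. The vehicle signal of PKP2, 4.05 ± 0.12 (SD, n = 3), was close to the median of all probes, so the size of its folds is uncertain. DSG2, a desmosomal cadherin, rose 2.71-fold with corin and 3.07-fold with MS-275. For JUP the difference between the inhibitors was -0.12 (95% interval -0.30 to 0.05), and for DSG2 it was -0.18 (-0.47 to 0.11).

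EPCAM and LLGL2 were the 2 epithelial genes called higher for corin against MS-275 (2.41% of all genes), and 0 were called lower by limma (at an unadjusted p under 0.05 whatever the fold, 8 were higher and 4 lower). LLGL2, a cell polarity protein of the lethal giant larvae family, had 5.01, 5.27 and 5.08 in vehicle, 5.96, 6.02 and 6.01 with MS-275, and 7.25, 7.22 and 7.37 with corin. Its groups did not overlap, and the step from MS-275 to corin was 2.43-fold (log2 difference 1.28, limma adjusted p = 6.9e-07). TJP3, the tight junction scaffold ZO-3, rose 4.85-fold with corin and 2.71-fold with MS-275, and its step of 0.84 between the inhibitors was under the limit. The 16 genes of the list not called with corin included GRHL2, OVOL1 and ESRP1, regulators of epithelial identity and splicing named after their values were seen, at differences of -0.12, -0.33 and 0.03 from vehicle. Of 6 measured keratinocyte markers 0 were called in any comparison by limma, with the p adjusted or not and past 2-fold. Over all genes 14.9% were called with corin, 3.42% with MS-275 and 6.05% between the inhibitors, so 0 of 6 says little. Their mean log2 signal stayed between 3.99 and 4.13 on the 9 arrays, close to the median of all probes.

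**Figure D3:**
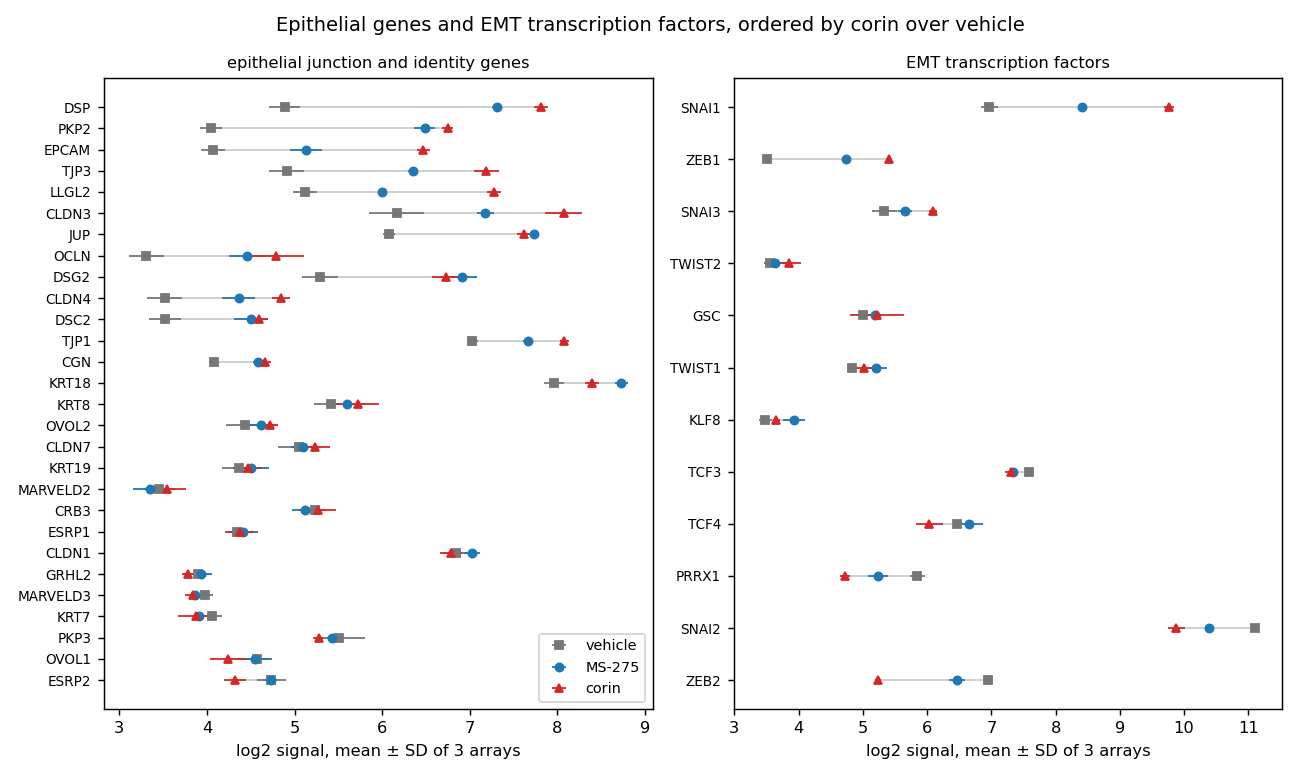
Mean log2 signal ± SD of 3 arrays (horizontal axis) for each measured epithelial gene (left) and EMT transcription factor (right), 1 gene per row, by group. DSP, PKP2 and JUP have both inhibitors side by side, while EPCAM, LLGL2 and SNAI1 show corin well to the right of MS-275, and SNAI2 and ZEB2 show it to the left.

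The partners and proteases of EPCAM were less uniform. Of 22 listed, EPCAM itself included, 17 were measured. With corin 2, EPCAM and ADAM17, were called higher and 3 lower than vehicle (7.26% and 7.61% of all genes). The median difference of the list was -0.20 with corin and 0.05 with MS-275. ADAM17, the sheddase that releases the EPCAM ectodomain, had 8.39, 8.25 and 8.30 in vehicle, 8.44, 8.47 and 8.57 with MS-275, and 9.50, 9.55 and 9.43 with corin. It rose 2.26-fold with corin over vehicle, and its 2.00-fold step over MS-275 (log2 difference 0.997, limma adjusted p = 2.3e-06) ended just under the limit. APH1A, a subunit of gamma-secretase, fell with corin, from 7.16 ± 0.02 in vehicle and 6.40 ± 0.08 with MS-275 to 5.14 ± 0.18 (SD, n = 3), or 4.08-fold under vehicle and 2.41-fold under MS-275. LEF1, a nuclear partner of beta-catenin that can bind the released EPCAM tail, fell 4.02-fold under vehicle with corin (log2 difference -2.01, limma adjusted p = 1.5e-07) and 3.12-fold under MS-275. With MS-275 EPCAM itself was the 1 gene of the list called higher, and 0 were called lower by limma (at an unadjusted p under 0.05 whatever the fold, 4 were higher and 5 lower). The shares over all genes with MS-275 were 3.03% and 0.39%.

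Ezrin and moesin went opposite ways. EZR had 9.45, 9.41 and 9.41 in vehicle, 10.40, 10.43 and 10.37 with MS-275, and 10.80, 10.79 and 10.77 with corin. The 3 groups were apart and rising. EZR rose 2.57-fold with corin over vehicle (log2 difference 1.36, 95% interval 1.20 to 1.52, limma adjusted p = 2.3e-08). With MS-275 it was 1.97-fold above vehicle (0.98, interval 0.82 to 1.14, limma adjusted p = 2.1e-06), just under the limit, and passed it with quantile normalization at 1.09. RDX, which encodes radixin, was 6.36 ± 0.08 in vehicle, 6.38 ± 0.12 with MS-275 and 5.80 ± 0.31 with corin (SD, n = 3), and its difference of -0.56 from vehicle with corin (limma adjusted p = 0.0053) was not called.

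**Figure D4:**
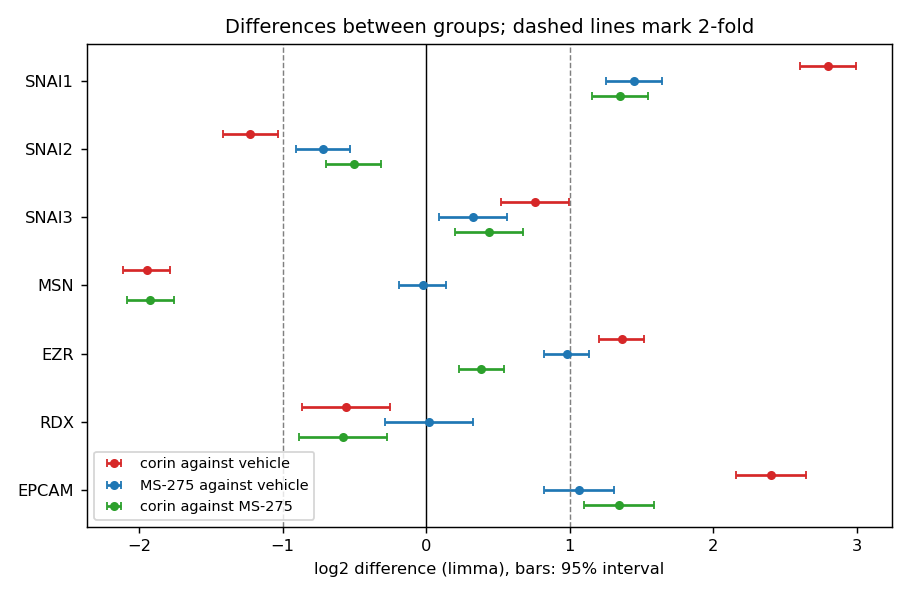
Log2 differences from limma (horizontal axis) for SNAI1, MSN, EPCAM and their measured relatives (rows), 1 colour per comparison, with 95% intervals as bars and dashed lines at 2-fold. For MSN the interval of MS-275 against vehicle spans 0, while both comparisons with corin lie near -1.9; EZR lies to the right of 0 in all 3.

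The RefSeq promoter table (GRCh38.p14) was searched for SNAI1, MSN, EPCAM and EZR, and held windows for MSN and EZR, whose transcripts corin moved in opposite directions. The 250 bases before each listed transcript start are shown for that reason, with GC boxes (GGGCGG or its reverse complement CCGCCC) in capitals. The coordinates are those of GRCh38.p14, not of the hg19 build in the submitters' processing notes.
MSN, first start, chrX:65588127-65588376, plus strand: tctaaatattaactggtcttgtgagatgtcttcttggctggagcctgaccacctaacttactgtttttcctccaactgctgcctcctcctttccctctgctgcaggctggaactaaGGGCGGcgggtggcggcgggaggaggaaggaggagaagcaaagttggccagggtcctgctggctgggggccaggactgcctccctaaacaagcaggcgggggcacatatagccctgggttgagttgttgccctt
MSN, second start, chrX:65667404-65667653, plus strand: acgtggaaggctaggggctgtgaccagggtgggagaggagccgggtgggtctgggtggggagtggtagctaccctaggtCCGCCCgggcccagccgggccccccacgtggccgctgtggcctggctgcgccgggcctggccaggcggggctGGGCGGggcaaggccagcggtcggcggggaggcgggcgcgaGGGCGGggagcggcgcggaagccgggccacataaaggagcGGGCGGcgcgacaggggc
EZR, chr6:158818236-158818485, minus strand: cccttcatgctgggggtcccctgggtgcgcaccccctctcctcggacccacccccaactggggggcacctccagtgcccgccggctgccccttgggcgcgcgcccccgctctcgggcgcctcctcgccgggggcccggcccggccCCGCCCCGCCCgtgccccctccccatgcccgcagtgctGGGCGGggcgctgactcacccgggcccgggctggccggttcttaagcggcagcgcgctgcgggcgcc

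The first MSN window held 1 GC box and 57.2% G and C, the second held 4 boxes and 78.0%, and the EZR window held 3 boxes, a pair of them overlapping by 1 base, and 80.8%. A GC box was present in 42.6% of the 35116 promoter windows of this length. The E-box bound by Snail factors (CAGGTG, or CACCTG on the other strand) was in none of the 3 windows by exact search of both strands, and in 17.5% of all windows. These counts describe letters in a short window, and which MSN start the cells used was not measured.

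Of 20 listed ERM proteins and membrane partners 14 were measured. With corin 4 were called higher and 1, MSN, lower than vehicle (7.26% and 7.61% of all genes), and with MS-275 2 were higher and 0 lower by limma (5 and 3 at an unadjusted p under 0.05 whatever the fold). The shares over all genes with MS-275 were 3.03% and 0.39%. PODXL, the sialomucin podocalyxin, which binds ezrin through its adaptors, had 5.17, 5.44 and 5.36 in vehicle, 7.93, 7.74 and 8.08 with MS-275, and 8.45, 8.67 and 8.06 with corin. PODXL rose 8.41-fold with corin and 6.03-fold with MS-275, and the arrays of both inhibitors overlapped. The median difference of this list was -0.10 with corin and -0.0022 with MS-275. ICAM1, an adhesion receptor for leukocyte integrins whose tail binds ERM proteins, had 9.40, 9.56 and 9.53 in vehicle, 10.09, 9.88 and 9.96 with MS-275, and 10.98, 10.97 and 10.94 with corin. ICAM1 was 2.76-fold over vehicle with corin, and its 1.98-fold step over MS-275 was just under the limit. SDC2, the proteoglycan syndecan-2, rose 2.35-fold with corin and 2.45-fold with MS-275, with a difference of -0.06 between them (95% interval -0.29 to 0.17).

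The wider family with a FERM domain, the membrane-binding fold of moesin, held calls in both directions. Of 22 measured genes corin left 6 called higher and 4 called lower relative to vehicle, and MS-275 left 2 and 0 by limma (12 and 3 at an unadjusted p under 0.05 whatever the fold), with medians of 0.26 and 0.25. The shares over all genes were 7.26% and 7.61% with corin and 3.03% and 0.39% with MS-275. All 4 of the lower genes were also lower for corin against MS-275 (3.64% of all genes), and 0 were called higher in that comparison by limma (5 at an unadjusted p under 0.05 whatever the fold). Beside MSN these were the cortical scaffold EPB41L3 (log2 difference between inhibitors -1.17), FRMD4A (-1.19), a scaffold of epithelial polarity, and FRMD4B (-1.08). For EPB41L3 and FRMD4B, as for MSN, vehicle and MS-275 arrays overlapped, at differences of -0.09 and -0.17. On the higher side, TLN2 (talin 2), which activates integrins, rose 3.06-fold with corin and was 1.62-fold over vehicle with MS-275. FERMT1 (kindlin 1), an epithelial integrin activator, rose 3.03-fold and 2.93-fold, from a vehicle signal of 3.74 ± 0.05 that lay below the median probe.

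Of 10 measured ERM regulators corin gave 1 called higher and 1 called lower, and MS-275 gave 1 and 0 by limma, each against vehicle (5 and 2 at an unadjusted p under 0.05 whatever the fold), with medians of -0.29 and 0.18. With 7.26% and 7.61% of all genes called higher and lower with corin, and 3.03% and 0.39% with MS-275, these counts over vehicle were near the background. At an unadjusted p under 0.05 whatever the fold, 2 were higher and 6 lower with corin over vehicle. For corin against MS-275 0 were called higher and 2, LRRK2 and ARHGDIB, lower by limma (2.41% and 3.64% of all genes). At an unadjusted p 1 was higher and 7 lower there, and the median was -0.49, against -0.03 over all genes. STK26 (MST4), a kinase that can phosphorylate ezrin, rose 2.49-fold with corin and 3.75-fold with MS-275. LRRK2, a kinase of Parkinson's disease reported to act on ERM proteins, fell 3.08-fold under vehicle with corin. STK10 and SLK, the main ERM kinases of many cells, were 0.05 and 0.10 from vehicle with corin (named after their values were seen). The vehicle signal of STK26 and the corin signals of LRRK2 and ARHGDIB lay close to or under the median probe.

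**Figure D5:**
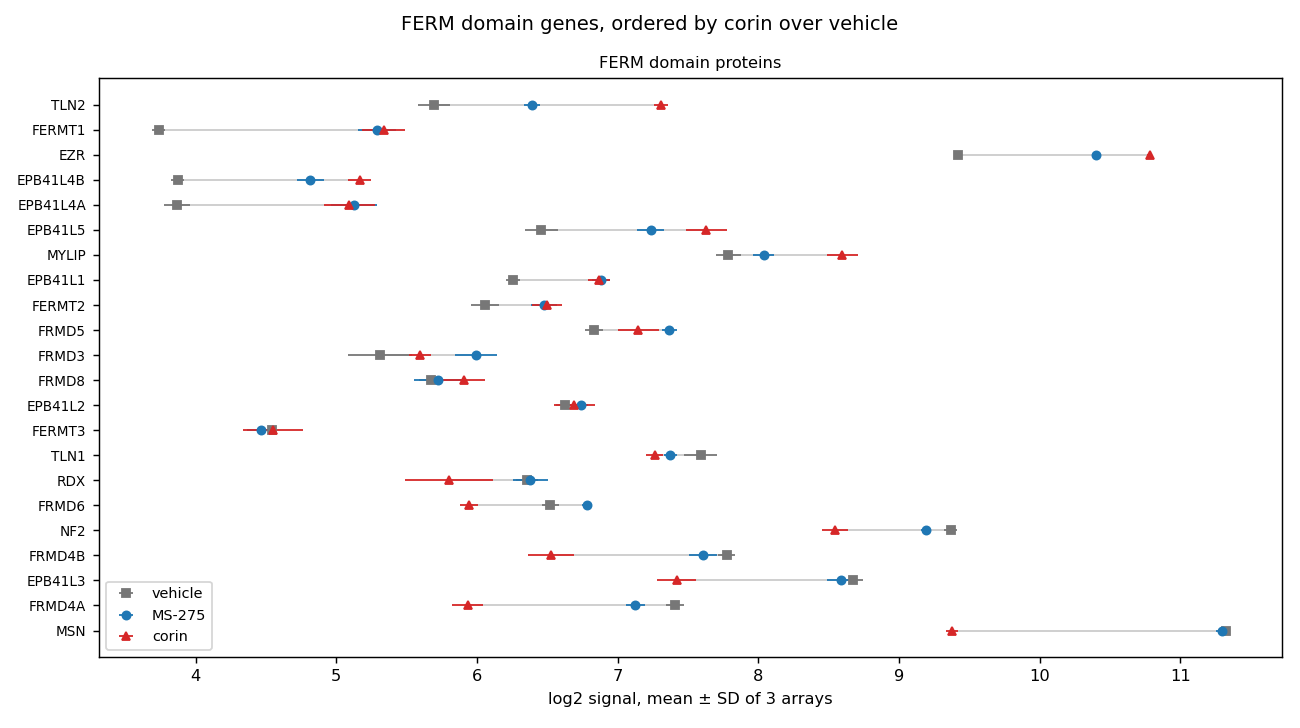
Mean log2 signal ± SD of 3 arrays (horizontal axis) for each measured gene with a FERM domain, 1 gene per row, by group. MSN, EPB41L3, FRMD4A and FRMD4B have vehicle and MS-275 close together and corin to the left, and FERMT1 has both inhibitors together, to the right of vehicle.

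Of 8 measured mesenchymal genes 0 were called higher with either inhibitor by limma (at an unadjusted p under 0.05 whatever the fold, 1 with corin and 3 with MS-275), and VIM (vimentin) and FN1 (fibronectin), named after their values were seen, were 0.09 and 0.19 from vehicle with corin. The median of the mesenchymal list was 0.04 with corin and 0.16 with MS-275. MMP14, a membrane-bound matrix metalloproteinase, was the 1 gene called lower (7.61% of all genes with corin), with 9.07, 9.11 and 9.09 in vehicle, 8.34, 8.31 and 8.39 with MS-275, and 6.42, 6.42 and 6.53 with corin. The corin arrays lay far below the others, at 6.19-fold under vehicle. Of 21 measured corepressors and stability regulators of SNAI1, 0 were called higher with corin and 2 were lower by limma (5 and 8 at an unadjusted p under 0.05 whatever the fold), and 0 were called with MS-275 (2 and 9), with medians of -0.07 and -0.09. Over all genes 7.26% and 7.61% were called higher and lower with corin and 3.03% and 0.39% with MS-275, so these counts were near the background. The 2 were LOXL3, a lysyl oxidase that can act with Snail, at 5.73-fold under vehicle, and SUV39H1, a histone H3 methyltransferase recruited by Snail, at 5.62-fold. Both were also called lower for corin against MS-275 (log2 differences of -2.05 and -1.61). For SUV39H1 that call was lost with the mean of its probes (-0.995). KDM1A, which encodes LSD1, and HDAC1, whose products are bound by the SNAG domain or its complex, differed from vehicle by -0.07 and -0.08 with corin and were not called.

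Genes were ranked by Pearson's r with each of the 3 over the 9 arrays, among the 2318 other genes called in at least 1 comparison. The 9 points fall in 3 groups, so a high r says mainly that the group means step alike, and r was over 0.95 for 515 genes with SNAI1, 360 with MSN and 475 with EPCAM. STAT3, a cytokine-activated transcription factor (r = 0.998), GPR50, an orphan receptor of the melatonin family, PMAIP1, which encodes the BH3-only protein NOXA, and CGREF1 came closest to SNAI1. GPR50 rose 18.6-fold with corin and 4.25-fold with MS-275, and PMAIP1 rose 3.78-fold with corin. TPGS2, LSAMP, LINC00992 and CEACAM1 came closest to MSN (r from 0.997 to 0.998). CEACAM1, an adhesion molecule that is often present in melanoma, fell 2.52-fold with corin and was 0.02 from vehicle with MS-275. LSAMP, an adhesion protein of the limbic system, fell 2.81-fold with corin, and LINC00992, a noncoding RNA, 6.48-fold. The corin signal of LINC00992, 2.73 ± 0.13 (SD, n = 3), lay below the median probe, so the size of its fold is uncertain. Closest to EPCAM were MAP7D2, a microtubule-associated protein (r = 0.997), the noncoding RNAs SNAR-F and ATP2B1-AS1, and WASHC4, a subunit of the WASH complex that nucleates actin on endosomes. MAP7D2 rose 5.20-fold with corin and by a further 2.68-fold from MS-275 to corin.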

How the data were processed

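RNA was labelled and hybridized to 1 array per sample. In Partek Genomics Suite the authors applied RMA, and the deposited table holds log2 values of 53617 probes for the 9 arrays, and the processing notes name hg19. The main fit used these values without further normalization. Of the probes 16098 had 1 gene symbol, 0 had several and 37519 had none. All 16098 matched the RefSeq table by gene identifier. They gave 14884 genes, and the probe with the highest mean stood for each of the 779 genes with several.

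Differences came from lmFit and eBayes on all 9 arrays (limma 3.58.1, R 4.3.3). A call needed a change of 2-fold or more, the limit of the series design, at an adjusted p under 0.05. The 1 pair of inhibitors was compared at the same dose and time. With an unadjusted p past the fold, 2214, 509 and 900 genes were called, the same as with the adjusted p. The code was tested on simulated data. The design calls the arrays biological triplicates without saying how cultures were separated. The study's methods describe the microarray data as representative of independent experiments, without saying which arrays came from which. The p-values therefore describe only how these arrays varied, which may be technical. The number of arrays limits precision.

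The genes, lists and named-gene rule were chosen with earlier results of these data known. Named were the 3 genes, their relatives, up to 4 called members of each list per comparison with the largest difference, and the 4 genes most like each of the 3. Not all are described, and some items are not reported here. Same-numbered replicates did not deviate together (r from -0.06 to 0.02). The 21 alternatives were the replicate block, 2 groups only, the methods' one-way model with adjusted or unadjusted p, eBayes with trend and robust settings, brighter genes only, the mean of a gene's probes, all probes, median centring, quantile normalization, a fold of 2 SD, no fold, and each of 9 arrays left out. Figures used matplotlib 3.10.9.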

Additional observations from a re-analysis of the deposited data

How the results depend on the processing

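SNAI1 and MSN kept their direction and their side of the threshold in all 3 comparisons under all 21 alternatives. Several of these cannot move a difference and bear only on the p-value: the replicate block, 2 groups only, the one-way models and the eBayes settings. Leaving out an array of the group not compared does not move it either. The 2 SD fold and no fold change only the threshold. SNAI1 and MSN have 1 probe each, so the mean of probes, all probes and brighter genes leave their differences as they were. Only median centring, quantile normalization and leaving out an array of a compared group could move them. SNAI1 ranged from 2.73 to 2.86 with corin and from 1.34 to 1.56 with MS-275 over vehicle, and MSN from -1.95 to -1.86 between the inhibitors. EPCAM was under the median signal and so had no value among brighter genes. Its differences with corin kept their calls under the other 20, and its difference with MS-275 lost the 2-fold limit with median centring (0.96) and quantile normalization (0.97) and ranged from 0.96 to 1.14 with 1 array left out, at an adjusted p from limma of 0.0014 or less. RDX with MS-275, which was not called, turned to -0.0837 with median centring and to -0.0050 and -0.0506 without vehicle replicate 3 and MS-275 replicate 2 (range with 1 array left out -0.0506 to 0.0666). Of 1975 values for the other named genes 1930 kept their call, counted over all alternatives, with those that cannot move a difference included. Apart from the relatives, these genes were named because they were called, and were counted only in comparisons where they were called. How many kept their call was therefore largely set by that choice.

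The pairing of replicate numbers is not given by the labels beyond the number. Every group holds the same replicate numbers, so a replicate block cannot change a difference, and only the p-values could move. The differences for corin over vehicle therefore stayed at 2.80 for SNAI1, -1.95 for MSN and 2.40 for EPCAM. Their limma adjusted p with the block was 2.5e-08, 9.4e-08 and 2.4e-07. The 2214 genes called, 1081 higher and 1133 lower, were as many as without it.

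Counts of higher and lower genes over the whole array moved most with the threshold. Without a fold they were 3477 and 3989 for corin over vehicle, 2108 and 2293 for MS-275, and 2592 and 3090 between the inhibitors. With all probes they were 2637 and 2220, 869 and 161, and 1373 and 1025. At 2 SD corin gave 428 and 425 and MS-275 153 lower, and brighter genes gave 235 higher between the inhibitors. Median centring moved the median of all genes with MS-275 from -0.03 to -0.14, gave 130 lower genes and cut the share of higher calls from 88.6% to 73.4%. Array signals near the median probe limit the size of folds for EPCAM and other dim genes.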

Other observations

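KDR, which encodes the vascular endothelial growth factor receptor VEGFR2 and marks endothelial cells, was the 1 of 3 measured endothelial markers that was called. Its mean log2 signal was 4.47 ± 0.10 on vehicle arrays, 6.94 ± 0.07 under MS-275 and 6.81 ± 0.02 under corin (SD, n = 3), and was 5.06-fold over vehicle under corin (limma adjusted p = 8.4e-10). The mean log2 signal of the 3 endothelial markers spanned 4.07 to 4.21 on vehicle arrays, 4.89 to 4.98 with MS-275 and 4.63 to 4.90 with corin. KDR alone carried this difference. VWF averaged 4.35 in vehicle, 4.31 under MS-275 and 4.32 under corin, and PECAM1 3.58, 3.53 and 3.23 in that order. Their signals lay close to or under the median probe. Corin left 7.26% of all genes called higher than vehicle and MS-275 3.03%, so 1 of 3 says little. KDR was described after its value was seen.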
